A study of Mus musculus with 6 samples.

Results

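The genes described here are the mouse genes whose symbol is Zfp followed by a number, Zfp42 left out. Their members were the rows of 6 methylated DNA peak lists that the authors had annotated to such a gene and classed as promoter or gene body. The rule kept 712 of the 40816 promoter and gene body rows in the 6 lists, from 130 of the 7351 gene names with such a row. Of the 712 rows, 79 were promoter rows from 19 genes and 633 were gene body rows from 116 genes, and 5 genes (Zfp236, Zfp579, Zfp64, Zfp831 and Zfp934) had both. In Zfp579 both came from 1 stretch with overlapping peaks in all 6 libraries, classed as promoter in 4 and as gene body in 2. Of the 130 genes, 129 were among the 396 protein-coding Zfp genes that RefSeq lists on GRCm38 (32.6%). The remaining one, Zfp828, carries another symbol in that annotation. Another 8 of the 396 had a promoter or gene body peak that the lists give under another gene name, and are therefore not members: Zfp729a, Zfp974, Zfp979, Zfp980, Zfp981, Zfp982, Zfp991 and Zfp992. Counted by gene identifier, 137 of the 396 (34.6%) had a peak in at least 1 library, and shares of the whole family below are counted in this way.

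DNA methylation was measured in the hippocampus of male C57BL/6 mice killed at postnatal day 21, in 3 pups that had been given ethanol and 3 that had been given saline. The ethanol dose was 2.5 g/kg, dissolved in 0.15 M NaCl, and controls received 0.15 M saline alone, in both groups as 2 subcutaneous injections on postnatal day 4 and 2 more on day 7. No allele or transgene is named in the labels, and each library came from 1 animal. The labels call the pups littermates without tying any of them to a litter, and the animals were treated as independent. In the assay, methylated DNA immunoprecipitation and sequencing (MeDIP-seq), sonicated DNA is pulled down with an antibody to 5-methylcytosine, and stretches that gather many reads are called as peaks. A stretch without a peak is therefore one that did not pass the caller's threshold, which is not the same as unmethylated. The hippocampus holds many cell types, so a weaker peak can mean fewer methylated cells or less methylation per cell, and the lists cannot tell these apart. They hold no expression values, so the tissue label was not checked against markers.

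Most Zfp genes encode transcription factors with arrays of C2H2 zinc fingers, each finger a short loop that holds a zinc ion through a pair of cysteines and a pair of histidines and reads a few bases of DNA. Many carry a KRAB domain, which recruits the corepressor Trim28 and with it histone and DNA methylation, and such proteins are known for silencing retroelements and guarding imprinted regions. The array is usually encoded in the long last coding exon, and the genes lie in chromosome clusters made by repeated duplication. The prefix is also carried by unrelated proteins, such as the RNA-binding CCCH proteins of the Zfp36 family.

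The 6 lists held 23141, 34904 and 28386 peaks in ethanol libraries 1 to 3, against 18922, 22703 and 20776 in saline libraries 1 to 3. Every ethanol list was longer than every saline list. The lowest background that the summit pileup and fold enrichment of any peak implied serves here as relative depth. This background pileup, a floor over the peaks of a library, averaged 2.28 ± 0.0988 in ethanol libraries (SD, n = 3). In saline libraries it averaged 2.18 ± 0.419 (SD, n = 3), with overlap. List length moved with treatment. The 18922 strongest peaks of each list were therefore taken for the counts and shares of Zfp genes per library. They were also taken for the genes with a peak in all libraries of 1 group only, and for the limma test. The other counts and the features of the peaks were not recomputed at equal list length.

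Sequences at 5 places are printed to show the CpG content of stretches that the results below turn on. They are 200 bp each, from the mm10 reference in the direction of the gene, all on the minus strand, with every CpG in capitals. The first 3 lie at the summit of a peak found in all 6 libraries, inside or between zinc fingers of the coding sequence: Zfp629 at chr7:127611270-127611469 with 17 CpG, Zfp27 at chr7:29894535-29894734 with 13 and Zfp768 at chr7:127343384-127343583 with 14. The fourth, at chr13:62548799-62548998 with 11 CpG, is the summit of the intron peak of Zfp934 that was in every ethanol and no saline library. The fifth, at chr13:67343215-67343414, is the middle of the finger array of Zfp953, a gene without a peak in any library, from the largest cluster of the family; it was chosen after its values were seen and holds 0 CpG.
Zfp629 finger array: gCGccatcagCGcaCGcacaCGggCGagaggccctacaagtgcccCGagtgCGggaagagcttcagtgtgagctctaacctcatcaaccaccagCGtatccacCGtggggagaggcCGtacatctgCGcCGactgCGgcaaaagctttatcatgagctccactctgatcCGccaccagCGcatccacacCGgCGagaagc
Zfp27 finger array: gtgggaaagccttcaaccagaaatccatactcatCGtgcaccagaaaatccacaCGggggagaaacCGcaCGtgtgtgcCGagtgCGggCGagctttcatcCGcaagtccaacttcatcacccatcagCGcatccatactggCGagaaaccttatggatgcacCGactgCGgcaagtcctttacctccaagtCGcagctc
Zfp768 finger array: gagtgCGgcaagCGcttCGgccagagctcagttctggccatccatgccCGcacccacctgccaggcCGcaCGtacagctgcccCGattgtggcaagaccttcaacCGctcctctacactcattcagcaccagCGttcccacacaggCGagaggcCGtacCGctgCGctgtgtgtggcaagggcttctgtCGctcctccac
Zfp934 intron: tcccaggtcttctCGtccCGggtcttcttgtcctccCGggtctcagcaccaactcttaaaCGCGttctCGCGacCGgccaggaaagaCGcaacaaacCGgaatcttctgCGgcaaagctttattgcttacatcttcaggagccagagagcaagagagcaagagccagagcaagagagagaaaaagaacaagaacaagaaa
Zfp953 finger array: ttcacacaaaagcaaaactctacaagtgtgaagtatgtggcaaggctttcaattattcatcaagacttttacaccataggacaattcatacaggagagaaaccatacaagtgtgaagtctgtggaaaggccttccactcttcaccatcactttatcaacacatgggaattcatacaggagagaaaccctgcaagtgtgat
The Zfp629, Zfp27, Zfp768 and Zfp953 stretches all encode the same kind of finger, while the number of CpG in them differs from 17 to 0. With 0 CpG, the Zfp953 stretch has no CpG whose methylation could be read.

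Gene body peaks of Zfp genes lay in coding exons about as often as in introns, and those in coding exons were mostly in the last one. The summit was in a coding exon of the annotated transcript for 50.8% ± 4.28 of the Zfp gene body rows of ethanol libraries and 54.0% ± 6.20 of those of saline libraries (SD, n = 3 each). For all other genes the same shares were 19.2% ± 1.502 and 19.4% ± 1.21, and in no library did the Zfp share, 46.6% at the lowest, come near the highest share of the others, 20.5%. The summit was in the last coding exon for 41.3% ± 4.42 of Zfp rows in ethanol and 45.2% ± 4.63 in saline libraries, against 5.77% ± 0.551 and 6.37% ± 0.409 for other genes. Introns held 44.6% ± 3.38 of the Zfp summits in ethanol and 41.4% ± 6.62 in saline libraries, and 76.6% ± 1.44 and 76.4% ± 1.23 of those of other genes. In ethanol library 2 and saline library 2, introns held slightly more of the Zfp summits than coding exons, 48.1% against 46.6% and 48.6% against 47.6%. In each of these measures of Zfp genes ethanol and saline libraries overlapped, with a difference between their means that was smaller than the spread of the libraries. Separation of Zfp and other genes in all 6 libraries is a description of the same genes seen in 6 animals, since most peaks recur.

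**Figure D1:**
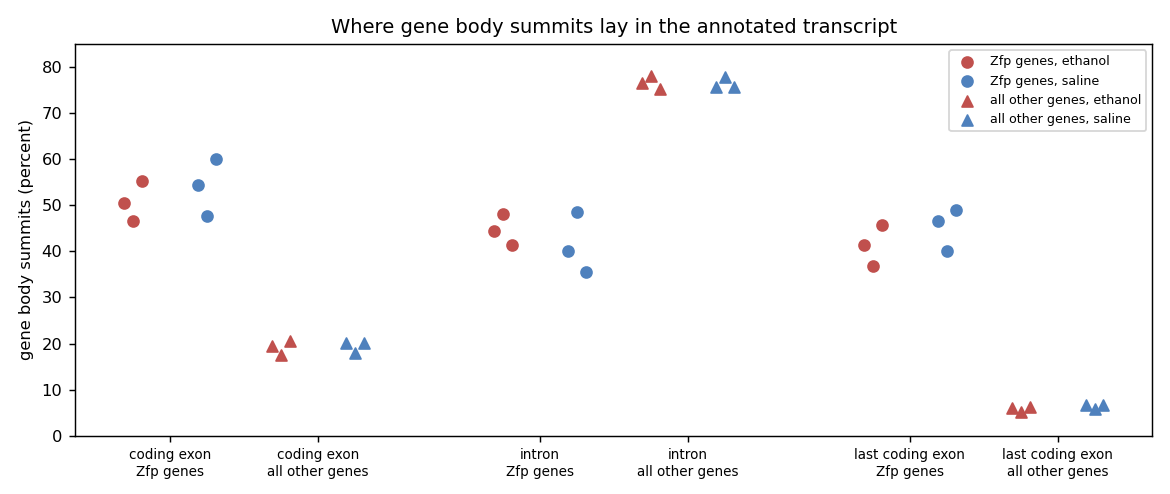
Share of gene body peak summits (percent of rows, vertical axis) in coding exons, introns and the last coding exon, for Zfp genes (circles) and all other genes (triangles), 1 point per library, ethanol red and saline blue. Coding exon shares of Zfp genes ran between 46.6% and 60% in the 6 libraries and those of other genes between 17.5% and 20.5%.

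Fingers were counted in the translated coding sequence as C, 2 to 4 residues, C, 12 residues, H, 3 to 5 residues, H, and the stretch from the first to the last finger was taken as the array. A summit in the array can therefore lie between fingers. The 200 bp at the array summit of Zfp787, not printed above, held 15 CpG and no finger. By this count 43.1% ± 4.26 of Zfp gene body summits lay in the array in ethanol libraries and 46.9% ± 4.82 in saline libraries, which is 49.7 ± 5.13 and 44.3 ± 3.06 rows per library. Summits were not held to one end of the array: their median position was 51.3%, 51.2% and 50.8% of the way along it in ethanol libraries 1 to 3, and 53.2%, 48.8% and 44.2% in saline libraries 1 to 3. The array peaks belonged to 62 coding Zfp genes. In 34 of these, an array summit was present in all 6 libraries. They were Zfp12, Zfp27, Zfp46, Zfp61, Zfp92, Zfp169, Zfp251, Zfp275, Zfp316, Zfp319, Zfp324, Zfp334, Zfp358, Zfp366, Zfp408, Zfp420, Zfp423, Zfp516, Zfp526, Zfp574, Zfp612, Zfp619, Zfp623, Zfp629, Zfp668, Zfp689, Zfp691, Zfp707, Zfp768, Zfp775, Zfp777, Zfp787, Zfp791 and Zfp799. Of these, Zfp423 is needed for cerebellar and olfactory development and adipocyte commitment, Zfp516 promotes brown fat gene expression, and Zfp366 is known from dendritic cells.

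The genes with an array peak differed from the rest of the family in the CpG content of their coding sequence more than in finger number. Median CpG density of the coding sequence was 4.12 per 100 bp in the 34 genes with an array peak in all 6 libraries and 2.88 in the 28 with one in 1 to 5 libraries. It was 2.38 in the 75 genes whose peaks all lay outside the array, 1.41 in the 259 without any promoter or gene body peak, and 1.88 in all 396. The median number of fingers was 12, 11, 9 and 10 in these sets, and 10 in all 396. A peak of either class was found in 14 of 37 genes with 0 to 2 fingers (37.8%), 28 of 81 with 3 to 7 (34.6%), 52 of 151 with 8 to 12 (34.4%) and 43 of 125 with 13 or more (34.4%). A peak in the array was found in 0%, 11.1%, 19.2% and 19.2% of the genes in these bins. The first bin includes 14 genes without a finger, which have no array. An array also widens with the number of fingers, so the order of these shares is partly set by the definition. These values come from the reference sequence and the lists together and carry no test. The lists give no methylation per CpG, so a gene with few CpG and no peak was not shown to be less methylated. The same holds for the exons and clusters compared by CpG density below.

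The last coding exon allows a comparison of Zfp genes with other genes of like exon size. It was 1000 bp or longer in 277 of 394 Zfp genes (70.3%) and in 1535 of 20606 other genes (7.45%). Among these long exons, a summit was found in at least 1 library in 75 of the Zfp exons (27.1%) and 433 of the others (28.2%), and in all 6 libraries in 46 (16.6%) and 199 (12.96%). So a long Zfp exon held a peak about as often as a long last exon of another gene, while its median CpG density, 1.44 per 100 bp, was below the 2.56 of the others. Within bands of CpG density the shares parted. Under 2 CpG per 100 bp, 2 of 180 Zfp exons and 35 of 576 others had a summit (1.11% and 6.08%). Between 2 and 3 the counts were 19 of 38 and 111 of 339 (50% and 32.7%), and between 3 and 4 they were 25 of 25 and 157 of 256 (100% and 61.3%). At 5 or more, 16 of 19 Zfp exons and 66 of 267 others had one (84.2% and 24.7%). The bands from 4 to 5 and from 5 up held only 15 and 19 Zfp exons. Between 4 and 5, 13 of 15 Zfp exons and 64 of 97 others had one (86.7% and 66.0%). The share of Zfp exons with a summit in all 6 libraries was 0% under 2 CpG per 100 bp, 10.5% between 2 and 3, 64.0% between 3 and 4, 86.7% between 4 and 5 and 68.4% at 5 or more. For other genes these shares were 1.04%, 8.26%, 28.1%, 45.4% and 18.4%.

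**Figure D2:**
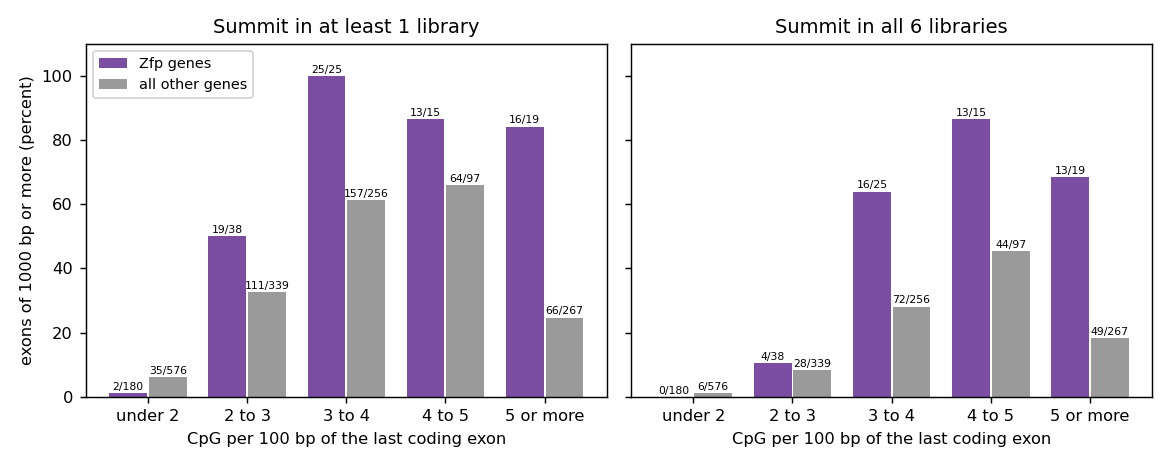
Share of last coding exons of 1000 bp or more (percent, vertical axis) that held a peak summit in at least 1 library (left) and in all 6 (right), by CpG per 100 bp of the exon, for Zfp genes (purple) and all other genes (grey), with counts above the bars. All 25 Zfp exons with 3 to 4 CpG per 100 bp held a summit in at least 1 library, against 157 of 256 exons of other genes, and only 2 of 180 Zfp exons under 2 CpG per 100 bp did.

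The 10 highest ranked Zfp genes with a gene body peak in all 6 libraries had it in a finger array, in multi-copy intron sequence, in a single-copy intron (Zfp423) or in an untranslated exon (Zfp467). Ranked by the authors' -log10 q within each list, Zfp933, a gene of a chromosome 4 cluster, came first. Its intron region at chr4:147838920-147840649 had summit pileups of 204, 205 and 224 tags in ethanol libraries, against 171, 170 and 174 in saline libraries, as deposited and not scaled to depth. All 3 ethanol values were above all 3 saline values before scaling, but 99.2% of the region is soft-masked as repeat and its summit window has 351 copies in the genome. After scaling, its log2 ratio of ethanol to saline was 0.08 (SE 0.162, limma adjusted p = 0.965).

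Zfp629, with 19 fingers, followed. Its array region at chr7:127610909-127612335 had 194, 193 and 201 tags in ethanol libraries, against 134, 216 and 179 in saline libraries. The ethanol libraries lay close together inside the wider range of the saline libraries. Zfp213, whose coding exon summit lay in the array in 4 of the 6 libraries, at chr17:23557604-23558472 had 169, 169 and 127 tags in ethanol and 135, 164 and 139 in saline libraries. Zfp600 had 157, 110 and 152 tags in ethanol and 125, 161 and 118 in saline libraries, in an intron region with 160 copies. In both genes the groups overlapped. Zfp467 had 187, 125 and 148 tags in ethanol and 106, 175 and 181 in saline libraries, and Zfp787 had 134, 145 and 102 in ethanol and 105, 147 and 138 in saline libraries. Zfp27, with 21 fingers, had 116, 148 and 125 tags in its array in ethanol and 103, 125 and 104 in saline libraries. These 3 genes overlapped as well. Zfp324 had 92, 111 and 90 tags in ethanol and 80, 111 and 100 in saline libraries, and Zfp316, with 14 fingers, had 92, 114 and 77 in ethanol and 115, 117 and 93 in saline libraries. Again no group stood apart before scaling. Of the 10 highest ranked genes, 2 (Zfp933 and Zfp600) had their peak at multi-copy sequence. The treatment of reads that fit more than 1 copy is not stated in the labels.

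**Figure D3:**
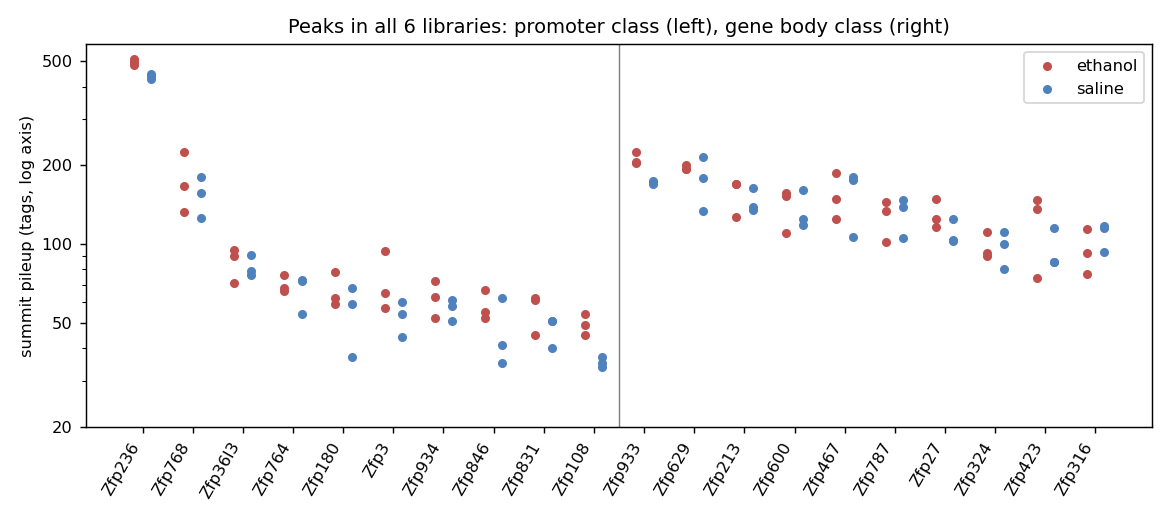
Summit pileup (tags, log axis, not scaled to depth), 1 point per library, ethanol red and saline blue. Left of the line are the 10 Zfp genes with a promoter peak in all 6 libraries, in order of rank. To the right are the 10 highest ranked Zfp genes with a gene body peak in all 6 libraries. Zfp236 stands highest with 484 to 508 tags in ethanol and 426 to 446 in saline libraries, and in most of the other genes the colours overlap.

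Promoter peaks of Zfp genes were few and lay off the start site. A promoter row has its summit within 2000 bp of the transcription start site (TSS). Each library had exactly 1 Zfp promoter row within 500 bp of the TSS, between 6.67% and 10.0% of its Zfp promoter rows, against 25.9% to 30.6% of those of other genes. Between 60% and 70% lay 500 to 2000 bp downstream, against 43.2% to 45.9% for other genes. The median distance from the TSS was 1462 ± 76.5 bp in ethanol and 1523 ± 36.3 bp in saline libraries, compared with 1010 ± 56.0 and 982 ± 33.5 bp for other genes. The authors' fold enrichment at these summits had a median of 10.4 ± 0.510 in ethanol and 9.56 ± 0.549 in saline libraries, and of 7.42 ± 0.130 and 7.47 ± 0.372 for other genes. The 1 row near the start site was that of Zfp180, 245 to 414 bp downstream, with 59, 78 and 62 tags in ethanol and 59, 68 and 37 in saline libraries, with overlap.

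Of the 10 Zfp genes with a promoter peak in all 6 libraries, 3 had the summit in a coding exon (Zfp768, Zfp36l3 and Zfp831). In Zfp764 it lay in an untranslated exon in every library. In Zfp180 it lay in an untranslated exon or an intron, depending on the library. Zfp768 was marked inside its array of 10 fingers, 1779 to 1861 bp past the TSS, with 224, 167 and 132 tags in ethanol libraries, against 126, 180 and 156 in saline libraries. The groups overlapped. Zfp36l3, an X-linked member of the CCCH RNA-binding family, had 95, 90 and 71 tags in its coding exon in ethanol and 76, 91 and 79 in saline libraries. Zfp831 had 45, 62 and 61 tags in a coding exon in ethanol and 51, 40 and 51 in saline libraries. Zfp764 had 68, 66 and 76 tags in ethanol and 54, 73 and 72 in saline libraries. Its summit lay in an untranslated exon of the annotated transcript that is coding in another isoform. Groups overlapped in all 3 genes.

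The highest Zfp promoter pileup was at repeat sequence. Zfp236 had 497, 508 and 484 tags in ethanol and 426, 439 and 446 in saline libraries at chr18:82693955-82695064, -1659 to -1619 bp from the TSS, where the summit window has 65 copies in the genome. The unscaled ethanol values were all above the saline ones, and after scaling the log2 ratio was -0.03 (SE 0.149, limma adjusted p = 0.993). Zfp3 had 94, 57 and 65 tags in ethanol and 44, 60 and 54 in saline libraries, and Zfp846 had 52, 67 and 55 in ethanol and 35, 62 and 41 in saline libraries, both in an intron and with overlap. The intron peak of Zfp934, with 24 copies, had 52, 72 and 63 tags in ethanol and 51, 61 and 58 in saline libraries, which overlapped too. Zfp108 had 45, 54 and 49 tags in ethanol and 37, 34 and 35 in saline libraries, -1868 to -1795 bp from the TSS. Its groups did not overlap before scaling. The share of all regions without overlap was counted for scaled values only. Of the other 9 promoter members, Zfp36, Zfp41, Zfp64 and Zfp781 had a promoter peak only in ethanol libraries, 1 library each and 2 for Zfp781, and Zfp7 in 1 saline library. Zfp507, Zfp579, Zfp652 and Zfp97 had one in both groups. A promoter peak in more ethanol than saline libraries was found in 4 of 19 Zfp genes (21.1%), against 698 of 1447 other genes (48.2%). The reverse was found in 2 Zfp genes (10.5%), against 227 other genes (15.7%).

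Distance separated the gene body peaks of Zfp genes from those of other genes in the same way in every library. Gene length bounds this distance, and the lengths of Zfp and other genes were not compared. The median distance from the TSS was 14068 ± 726 bp in ethanol and 13409 ± 1798 bp in saline libraries, against 27059 ± 863 and 27095 ± 630 bp for other genes. Between 21.9% and 25.3% of Zfp rows lay 5000 to 10000 bp from the TSS, compared with 12.8% to 13.8% of other rows, and 16.7% to 26.3% lay beyond 50000 bp, compared with 32.2% to 34.3%. Median CpG density of the peaks was 3.62 ± 0.231 per 100 bp in ethanol and 3.84 ± 0.101 in saline libraries, against 2.64 ± 0.125 and 2.81 ± 0.200 for other genes. Median soft-masked share was 7.30% ± 1.61 and 4.70% ± 0.165, against 21.9% ± 2.61 and 24.4% ± 1.80. This Zfp share was higher in every ethanol library, 5.82% to 9.01%, than in any saline library, 4.52% to 4.84%, and other genes did not separate by group. It was not recomputed at equal list length.

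Of the merged Zfp regions, 47 lay beyond 50000 bp from the TSS. They belonged to 13 genes, 5 of which held 34 of them. Zfp385b, outside these 5, had a region 107421 to 107613 bp from the TSS in all 6 libraries, with 28, 42 and 40 tags in ethanol and 38, 40 and 38 in saline libraries, which overlapped. Zfp423, which has 27 fingers, held 11 merged regions, the most of any member, and Zfp521, Zfp536 and Zfp704 held 8 each and Zfp407 6. In Zfp423, 3 of the 11 regions were in all 6 libraries. Of these, the intron region at chr8:87815259-87816053 had 136, 147 and 74 tags in ethanol and 85, 115 and 85 in saline libraries, and the array region at chr8:87780002-87781944 had 76, 99 and 61 in ethanol and 56, 66 and 64 in saline libraries. Both overlapped. Zfp521, known for controlling neural progenitor fate, had 1 of its 8 regions in all 6 libraries, and all 8 were intronic, 6992 to 271651 bp from the TSS. Zfp536, a repressor of neuronal differentiation, had 2 of 8 in all 6 libraries, both intronic. Zfp704 had 1 of 8 in all 6 libraries, at a site with 21 copies. Zfp407 had none of its 6 in all 6 libraries.

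Role lists were read next, beside a gene body peak in 30.8% of the 396 coding Zfp genes and 29.0% of all 21774 coding genes, and one in all 6 libraries in 14.4% and 9.80%. Of 6 genes known for imprint and retroelement silencing (Zfp57 and Zfp445, which protect imprinted regions, Zfp568, which represses a placental Igf2 promoter, Zfp809, which silences retroviruses, and Zfp708 and Zfp932, which bind retroelements), 0 had a promoter or gene body peak in any library. Coding CpG density in these 6 was between 0.443 per 100 bp in Zfp932 and 2.43 in Zfp568. Of 12 names listed for neural development and myelin, 6 had a gene body peak (Zfp106, Zfp365, Zfp423, Zfp462, Zfp521 and Zfp536) and 3 of these (Zfp423, Zfp521 and Zfp536) had one in all 6 libraries. Of the 12 names, Zfp191 and Zfp238 are older symbols of Zfp24 and Zbtb18 and could not match. Zfp365, known from oligodendrocyte and neuron differentiation, had a coding exon region 3119 to 3136 bp from the TSS in 2 ethanol and 0 saline libraries, with 38 and 24 tags. Its second region, an intron at chr10:67900122-67900667, was in ethanol library 2 with 31 tags and in saline library 2 with 39. The RNA-binding Zfp36, which destabilises cytokine transcripts, had its promoter row in ethanol library 2 alone, while Zfp36l1 and Zfp36l2 had none. Zfp264, near the imprinted Peg3 domain, had none. Of 22 corepressor and chromatin genes through which KRAB proteins act, 8 had a gene body peak, and the 3 with one in all 6 libraries were Chd4, Daxx and Dnmt1.

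Peaks were spread unevenly over the chromosome clusters of the family. Runs of at least 4 Zfp genes with starts under 500 kb apart made 23 clusters. They held 203 genes, of which 58 (28.6%) had a peak, while 79 of the 193 genes outside clusters (40.9%) did. Chromosome 7 had most, 38 of its 93 Zfp genes (40.9%), and higher shares were found on chromosomes 18 (8 of 11, 72.7%), 15 (7 of 11, 63.6%), 14 (3 of 5), 4 (14 of 27, 51.9%), 10 (3 of 6), 11 (9 of 21, 42.9%) and 6 (7 of 17, 41.2%). It was 8 of 46 on chromosome 17 (17.4%) and 6 of 37 on chromosome 13 (16.2%). None of the few Zfp genes on chromosomes 1, 16 and 19 had a peak. The 5 clusters with most genes with a peak included 3 on chromosome 7. In the cluster at chr7:127233061-127885996, 8 of 10 genes had one (Zfp553, Zfp768, Zfp747, Zfp764, Zfp689, Zfp629, Zfp668 and Zfp646), and in 7 of them it was in the array. Median coding CpG density in this cluster was 4.56 per 100 bp. Zfp771, which has 13.6 CpG per 100 bp of coding sequence, and Zfp688, with 2 fingers, were the other genes of the run and had no peak. In the cluster at chr7:24081877-25227876, 8 of 14 genes had a peak, at a median of 2.75 CpG per 100 bp, and at chr7:29768552-30169775, 7 of 15, at 2.65. The next were chr6:47815536-48621548 with 5 of 9, at 3.62, and chr17:32765496-33631716 with 5 of 13, at 1.65. In the largest run, chr13:66670274-67827000, 1 of 24 genes (Zfp729a) had a peak, and its median coding CpG density was 0.765 per 100 bp. The run at chr17:21008941-23599755 had 2 of 23, at 0.628. CpG density and the share of genes with a peak did not go together in every cluster. The run at chr7:4915181-5053723, with the highest median, 5.91, had 1 of 6, and a pair of chromosome 4 runs with medians of 0.574 and 0.368 had 4 of 7 and 4 of 9, of which 6 were genes listed under another name and the others Zfp600 and Zfp933.

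Ethanol and saline libraries were then compared by the number of Zfp genes with a peak. Promoter peaks were found in 12, 15 and 14 Zfp genes in ethanol libraries, against 10, 14 and 14 in saline libraries, and the groups overlapped. Gene body peaks were found in 77, 95 and 87 Zfp genes in ethanol libraries, against 73, 75 and 77 in saline libraries. The groups met at 77, and the means were 86.3 ± 9.02 and 75 ± 2 (SD, n = 3 each). With the 18922 strongest peaks of each list, the means were 68.7 and 71.3, so the higher ethanol count was not present at equal list length.

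Of the genes with a promoter peak, Zfp genes were 1.599% ± 0.0897 in ethanol libraries and 1.93% ± 0.198 in saline libraries. Of those with a gene body peak they were 1.95% ± 0.0710 in ethanol libraries and 2.16% ± 0.104 in saline libraries. In both shares every ethanol library was below every saline library, the differences being -0.33 and -0.21 percentage points. Wilson 95% intervals of the promoter share in single libraries ran between 0.913% and 3.47% and overlapped between all libraries. At equal list length the promoter share was 2.16% in ethanol and 1.99% in saline libraries, the other way round, and the gene body shares were 2.13% and 2.21%. Over the whole lists, ethanol libraries had a promoter peak in 860 ± 142 genes and saline libraries in 653 ± 60.5, and a gene body peak in 4440 ± 616 and 3484 ± 219 genes. List length thus moved with these shares, and its part in them cannot be told apart from that of treatment in the full lists.

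**Figure D4:**
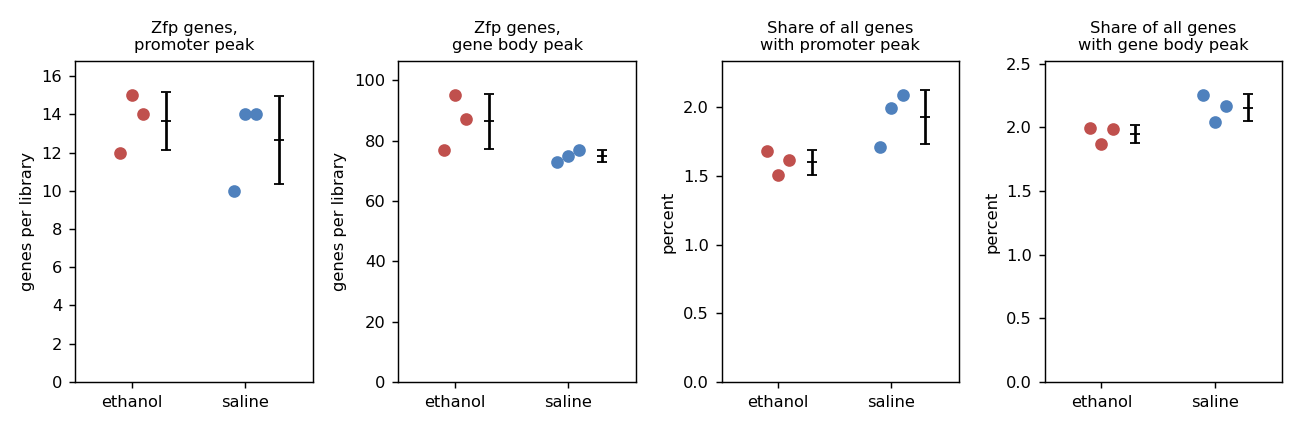
Number of Zfp genes with a promoter or a gene body peak (left pair, genes per library) and their share of all genes with such a peak (right pair, percent), 1 point per library with mean and SD beside the points, ethanol red and saline blue. Gene counts overlap between the groups (77 in the lowest ethanol and the highest saline library for gene bodies), and both shares are lower in every ethanol library.

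Presence of a peak in every library of 1 group and none of the other was rare in the family. Of the 19 promoter genes, 0 had a peak in every ethanol and no saline library, a pattern that 1.71% of all 1466 genes with a promoter peak showed, and 0 had the reverse, shown by 0.341%. Of the 116 gene body genes, 1 (Zfp934, 0.862%) had a peak in every ethanol and no saline library, against 1.42% of all 6347 genes with a gene body peak, and 0 had the reverse, against 0.0788%. These counts were near what all genes gave. Zfp934 was not free of peaks in saline libraries, since its promoter-class peak was in all 6 libraries. Without ethanol library 3 the promoter count was 1 (Zfp781). The gene body count was 5 without ethanol library 1, 3 without saline library 1 and 2 without any other single library, with Zfp934 in it each time. With a library left out, fewer libraries have to match for any gene. The share of all genes with these patterns was not counted in these settings. A peak in all 6 libraries was commoner in the family, in 10 of 19 promoter genes (52.6%, against 21.8% of all genes) and 55 of 116 gene body genes (47.4%, against 33.8%). Gene body peaks in more ethanol than saline libraries were found in 39 Zfp genes and the reverse in 14, against 2764 and 688 of 6231 other genes. The remaining gene body members were in 5 libraries (11 genes), 4 (8), 3 (6), 2 (13) or 1 (23).

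Merged regions, stretches in which peaks of the libraries shared at least 1 bp, were counted next. The Zfp rows made 203 regions, of which 68 (33.5%) were in all 6 libraries, against 21% of all 48853 regions, and 60 (29.6%) were in a single library, against 34.7%. Coding exon regions recurred more than intron regions: 40 of 81 Zfp ones (49.4%) were in all 6 libraries, against 579 of 1943 in other genes (29.8%), while for introns it was 15 of 97 (15.5%) against 1651 of 9637 (17.1%). Of the 6 Zfp regions in an untranslated exon, 3 were in all 6 libraries. In every ethanol and no saline library were 2 Zfp regions (0.985%), against 1.49% of all regions, and 0 showed the reverse, against 0.108%. The first was the Zfp934 intron at chr13:62548584-62549274, with 56, 70 and 39 tags and fold enrichments between 6.18 and 7.87 in the ethanol libraries, 9673 to 9708 bp from the TSS. It is 100% soft-masked, so all of it is marked as repeat, and the nearest saline peak was 7184 bp away. Its summit window has 2 copies at 95% identity over 90% of its length, and copies that differ more were not counted. The second was an intron of Zfp407 at chr18:84380748-84381723, with 22, 26 and 45 tags and fold enrichments between 3.75 and 5.96, 208116 to 208660 bp from the TSS and 30467 bp from the nearest saline peak. Zfp407 had gene body peaks elsewhere in saline libraries, so it is not among the genes with a gene body peak in ethanol libraries alone. Zfp934 is among them by its gene body rows only, since its promoter-class intron peak was in all 6 libraries.

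Strength was compared at the regions with a peak in all 6 libraries, where each library gives a value. Summit pileups were scaled by the median ratio over all 10276 such regions and tested with limma on the log2 scale, with Benjamini-Hochberg adjustment over all of them. Of the 68 Zfp regions, 0 were higher and 0 lower in ethanol at an adjusted p under 0.05, as among all 10276 regions (0% in either direction). At an unadjusted p under 0.05, 1 Zfp region was higher and 2 were lower, against 278 and 265 of all regions, and an exact permutation test of 3 against 3 libraries cannot give a p below 0.1. The median log2 ratio was -0.02 over the 68 Zfp regions and -0.00 over all regions, and 31 of the 68 were above 0. Ethanol and saline values did not overlap in 3 Zfp regions higher in ethanol (4.41%, against 5.3% of all regions) and 6 lower (8.82%, against 5.14%).

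The lowest ratio was at the array of Zfp689, a gene with 10 fingers in the chromosome 7 cluster of 10 genes, at chr7:127444072-127445288. Its scaled pileup was 66.1, 37.8 and 41.4 tags in ethanol libraries, against 69.9, 71.1 and 95.3 in saline libraries. Every ethanol value was below every saline value, by a small margin for ethanol library 1. The log2 ratio was -0.73 (SE 0.228, limma adjusted p = 0.907; exact permutation p = 0.1, the smallest that 3 against 3 can give), and over 13 alternative settings it ran from -0.98 to -0.33 with adjusted p between 0.0688 and 0.999. Zfp316 followed with 92.1, 95.8 and 72.4 scaled tags in ethanol and 136, 112 and 100.8 in saline libraries, without overlap (log2 ratio -0.42, SE 0.186, limma adjusted p = 0.907). Zfp61 had 20.02, 37.0 and 33.9 in ethanol and 45.0, 37.5 and 32.5 in saline libraries, with overlap (-0.38, SE 0.245, limma adjusted p = 0.913). Without ethanol library 1 the Zfp61 ratio was -0.10.

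The highest ratio was at an intron of Zfp536, chr7:37748677-37749322, 20744 to 20873 bp from the TSS. Its scaled pileup was 57.0, 75.6 and 68.7 tags in ethanol libraries, against 48.6, 39.4 and 54.2 in saline libraries, without overlap. The log2 ratio was 0.51 (SE 0.213, limma adjusted p = 0.907). The other shared region of Zfp536, at chr7:37669444-37670157, had 60.1, 47.9 and 67.7 scaled tags in ethanol and 58.0, 62.5 and 68.3 in saline libraries, with overlap. Zfp707 (log2 ratio 0.27, SE 0.210) and Zfp108 (0.27, SE 0.216) came next, with limma adjusted p = 0.928 for both and no overlap between the groups. Without saline library 2 the Zfp108 ratio was 0.16. The 3 arrays with the sequences above showed no difference beyond their spread: the log2 ratio was -0.03 (SE 0.165) for Zfp629, 0.01 (SE 0.166) for Zfp27 and -0.05 (SE 0.192) for Zfp768.

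**Figure D5:**
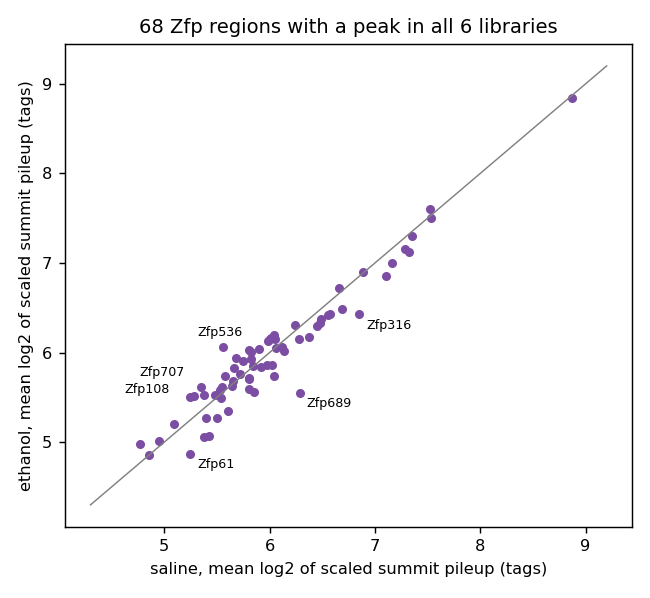
Mean log2 of scaled summit pileup (tags) in ethanol (vertical axis) and saline libraries (horizontal axis) for the 68 Zfp regions with a peak in all 6 libraries, 1 point per region, with the line of equal values and the named regions labelled. The points lie along the line, Zfp689 being farthest below it (log2 ratio -0.73) and Zfp536 farthest above (0.51), and none passed an adjusted p of 0.05.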

How the data were processed

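MeDIP libraries from 6 hippocampi were sequenced for 150 cycles and aligned to mm10 with Bowtie, per the labels; the submitters' processing notes name Bowtie2 2.1.0. The labels name MACS version 2 as the peak caller, with a q threshold of 1e-4, and each library has its own list. The deposited tables give, per the file headers, each peak's summit pileup (unscaled coverage signal), a fold enrichment (summit to local background, a ratio), its length and signed distance to the TSS in bp, and a q column. The deposited q column holds -log10 q, at least 5.00 in every list. Both measures come from the authors' caller and served to describe, rank or filter peaks.

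Peaks sharing at least 1 bp were merged to regions. Median-ratio-scaled log2 pileup was tested with limma 3.58.1 (R 4.3.3), with trend, on regions held by all 6 libraries, and the fit was tested on simulated data; regions missing from a library got no value and no test. Counts and shares per library are given as mean ± SD without a test. Transcript features, coding sequences and soft-masking came from RefSeq on GRCm38, and copies were matches of the 200 bp summit window at 95% identity over 90% of its length (BLAST 2.17.0). All 130 gene identifiers matched; members go by the lists' gene names, and counts over the family by gene identifier. Wilson intervals are at 95% and cover counting error only; library depths are unknown. Alternatives were equal list lengths, a -log10 q of at least 10, narrower distances, other scalings and merges, a replicate block, and leaving out each library.

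The members, lists and settings were chosen with earlier results of these data known. Genes were named by fixed rules: presence in all of 1 group and none of the other, the 10 highest mean ranks of -log10 q in each class, the 3 smallest limma p in each direction, the 5 with most regions, the role lists and the 5 clusters with most genes with a peak. In the promoter class, the 10 were all the Zfp genes with a peak in all 6 libraries. Other genes were named after their values were seen. A row for a peak annotated to several genes counts for each gene.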

Additional observations from a re-analysis of the deposited data

Results flagged for a closer look

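Peaks classed as intergenic but annotated to a Zfp gene were outside the comparisons above. There were 325, 457 and 374 such rows in ethanol libraries, against 262, 308 and 284 in saline libraries, so that the lowest ethanol library, with 325, was above the highest saline one. Among all intergenic rows their share was 1.80% ± 0.0795 in ethanol libraries (SD, n = 3) and 1.83% ± 0.0133 in saline libraries (SD, n = 3), and the groups overlapped.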

How the results depend on the processing

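The difference in Zfp promoter share (ethanol minus saline) moved from -0.33 percentage points to 0.176 with lists of equal length and to -0.0930 with summits within 1000 bp of the TSS. The gene body share difference moved from -0.21 to -0.0805 with equal lists and to -0.402 with summits within 20 kb, and the difference in gene body genes from 11.3 to -2.67 with equal lists. Leaving out each library in turn gave ranges of -0.44 to -0.25 and -0.26 to -0.16 for the shares and 7 to 16 for gene body genes.

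Zfp genes with a promoter peak in every ethanol and no saline library numbered 0 to 1 when each library was left out (Zfp781 without ethanol replicate 3), and with a gene body peak 2 to 5, always with Zfp934. The highest, 5, came without ethanol replicate 1. The reverse gene body pattern gave 0 to 1 (1 without ethanol replicate 1, ethanol replicate 2 or saline replicate 2), and 2 genes (Zfp385a and Zfp93) with equal lists. The cause of these moves was not tested beyond what fewer peaks or fewer libraries to satisfy bring by construction. The share of all genes with these patterns was not counted in these settings, so the counts cannot be set against it.

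No Zfp region was called in the main limma test or in any of 13 alternatives, and the 6 named regions kept their direction, Zfp61 over 12 of these since its region was not in all of the equal lists. The log2 ratio moved by over 1.5 times for Zfp61 without ethanol replicate 1 (-0.38 to -0.10) and with scaling by background pileup (-0.24), and for Zfp108 without saline replicate 2 (0.27 to 0.16). With fold enrichment in place of pileup it was -0.33 for Zfp689, -0.28 for Zfp316, -0.15 for Zfp61 and 0.28 for Zfp536. Scaling by background pileup moved the median of all regions by 0.13 and left 46 of 68 Zfp regions above 0. Samples of the same replicate number did not deviate together (r = -0.17, -0.03 and -0.01), and pairs of unlike number ran from -0.13 to 0.14. With 3 libraries per group these values cannot show whether any animals were paired. With the replicate block limma called 4 regions lower among all 10276 and 0 Zfp regions. Without ethanol replicate 1 it called 5 higher and 16 lower, and without saline replicate 1, 1 higher, again 0 of them Zfp regions. Merging at 200 bp and a mean pileup of at least 20 left the same 10276 regions. The planned setting with 3 fingers in a protein table was not run; fingers from translated coding sequences were used in its place, chosen after seeing the data. The lists hold no reads where no peak was called, which limits presence comparisons to the threshold of each list.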
